A study of Mus musculus with 4 samples.

Results

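Genes of Krüppel-like factors (KLFs) were followed through the open chromatin of large peritoneal macrophages (LPMs). The set holds 10 genes, Klf2, Klf3, Klf4, Klf6, Klf7, Klf9, Klf10, Klf11, Klf13 and Klf16, of 24963 annotated genes on chromosomes with peaks. Their chromatin is described by 173 of 70744 merged ATAC-seq regions. A region is a run of peaks of the 4 libraries that share at least 1 bp. It was assigned to a KLF gene when the transcription start site (TSS) nearest to its midpoint was that of the gene (155 regions), or when it overlapped the gene body. The assignment of regions uses position alone, but the genes were chosen with earlier results of these data known.

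KLF proteins are zinc finger transcription factors that bind GC-rich and CACCC boxes, the same letters that SP factors bind. Family members differ mainly in the part of the protein that recruits other factors. Klf3 is a repressor that binds the corepressor CtBP. Klf2, Klf4, Klf6 and Klf7 mostly activate transcription and can recruit the acetyltransferases p300 and CBP. Klf9, Klf10, Klf11, Klf13 and Klf16 bind the SIN3 corepressor complex. In macrophages, Klf2 and Klf4 are known as brakes on inflammatory activation and on proliferation, and Klf6 as a factor that favours inflammatory gene expression.

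In ATAC-seq the transposase Tn5 cuts and tags accessible DNA, so that reads pile up at promoters and enhancers. All libraries were made from 40000 sorted LPMs of 9-week-old C57BL/6 mice that carry floxed Rxra and Rxrb alleles (Rxrab fl/fl), which encode the retinoid X receptors (RXRs) alpha and beta. The control libraries, replicates 1 and 3, come from Rxrab fl/fl mice without Cre. The RXR-deficient libraries, replicates 1 and 2, come from LysMCre+ Rxrab fl/fl mice, which carry Cre under the lysozyme M promoter, active in macrophages, monocytes and neutrophils. Recombination is thus not limited to LPMs, and the cells analysed are the LPMs that such mice still have. Whether a library is 1 mouse or a pool is not given in the sources used here, so p-values measure the spread between these libraries. According to the study's reporting summary, libraries that did not cluster with their group were left out, which can narrow that spread. In sorted cells, a different mixture of cells and a different accessibility per cell cannot be told apart.

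The libraries were unequal. The peak lists hold 38048 and 16097 peaks in control replicates 1 and 3, and 65421 and 55581 in RXR-deficient replicates 1 and 2. Control replicate 3 is the shallowest at open sites, with a median of 20 tags at the summits of the regions called in all libraries, against 97, 99 and 65 in the others. The Rxra promoter reached a fold enrichment of 6.43 and 5.77 in controls and 10.4 and 7.27 in RXR-deficient LPMs, and the Rxrb promoter 8.36 and 5.71 against 7.17 and 4.79. A peak at a promoter does not measure the deletion of an exon, so these values do not check the labels. Promoter regions were called at 5 and 5 of 7 macrophage markers in controls and at 7 and 7 in RXR-deficient LPMs. For the 6 LPM markers the counts were 6 and 4 in controls against 6 and 6. Promoters were called at 0 of 5 T cell and 0 of 4 mesothelial markers in each library. At B cell markers, 0 or 1 of 5 were called (0 in control replicate 3). Small peritoneal macrophages (SPMs) are the other resident population. Promoters of their markers were called at 2 and 1 of 7 genes in controls and at 6 and 6 in RXR-deficient LPMs. Only that of Irf4 was called in all libraries. Over all merged regions, 52.0% and 21.9% were called in controls and 90.7% and 77.2% in RXR-deficient LPMs. Regions whose midpoint lies at a TSS were called more widely. Of these, 55.8% were called in all 4 libraries and 23.2% in both RXR-deficient libraries and 1 control. Another 8.91% were called in both RXR-deficient libraries only. These are shares of regions, whereas the marker counts are per gene. Genotype and peak number go together in these libraries and cannot be told apart in the marker counts. The part of SPM-type chromatin in the KLF values was not tested.

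All 10 KLF promoters were open in all 4 libraries, as were 55.8% of all promoter-TSS regions, those whose midpoint lies at a TSS. Of the 173 KLF regions, 107 (61.8%) and 47 (27.2%) were called in control replicates 1 and 3, and 151 (87.3%) and 127 (73.4%) in RXR-deficient replicates 1 and 2. Over all merged regions the shares were 52.0% and 21.9% in controls and 90.7% and 77.2% in RXR-deficient LPMs. The KLF regions comprised 45 called in all libraries (26.0%, against 21.5% of all regions), 44 called in both RXR-deficient libraries and 1 control (25.4%, against 25.6%), and 42 called in a single RXR-deficient library alone (24.3%, against 25.0%). Regions called in both RXR-deficient libraries and in neither control numbered 24 (13.9%), against 22.8% of all merged regions. None was called in both controls only, a pattern held by 0.0452% of all regions. With the strongest 16097 peaks of each library, 72 KLF regions remained, of which 6 (8.33%) were called only in both RXR-deficient libraries and 4 (5.56%) only in both controls, against 7.82% and 7.22% of all regions. The shares called in both libraries of 1 genotype and in neither of the other lay near or below these backgrounds. The share called in all libraries lay above its background. So did 3 further patterns of the 173 regions. These were 1 control alone (8, 4.62%, against 1.90%), both controls and 1 RXR-deficient library (2, 1.16%, against 0.137%), and 1 of each genotype (8, 4.62%, against 3.10%). No test was run on the counts.

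The number of regions differed widely between the genes. Klf4 had 52 regions, Klf3 had 19, Klf2 and Klf7 had 18 each, Klf10 had 17, Klf6 had 16, Klf9 and Klf13 had 13 each, Klf16 had 4 and Klf11 had 3. By regions nearest to its own TSS, Klf4 ranked 2 of 24963 genes, where the median gene had 2. The stretch of chromosome 4 that lies nearer to the Klf4 TSS than to any other is 661 kb long (rank 479 of all genes), since the next TSS upstream, that of Actl7b, is 1209 kb away. Its density was 7.86 regions per 100 kb, against 2.95 over all genes together. Densities at the other genes ran from 4.64 at Klf6 to 48.3 at Klf16, whose stretch is only 8.28 kb long.

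At the promoters of Klf2, Klf4, Klf10, Klf13 and Klf16, fold enrichment before centring was lower in both RXR-deficient libraries than in both controls, as at 4.12% of all promoter-TSS regions, and it overlapped between genotypes at the other 5. After centring on the median of each library, 8 of the 10 lay below without overlap, all but Klf3 and Klf9, against 42.3% of all promoter-TSS regions. None of the differences passed the threshold. Fold enrichment is the number of tags at the summit over the local background, with a pseudocount of 1. For a comparison of genotypes, log2 fold enrichment was centred on the median of each library, and limma was fitted to all 15199 regions called in all libraries. The threshold for a call was an adjusted p under 0.05 together with a log2 fold change past 1, taken as RXR-deficient minus control. With 2 libraries per genotype, an exact permutation test of a single region cannot go below a two-sided p of 0.333.

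**Figure D1:**
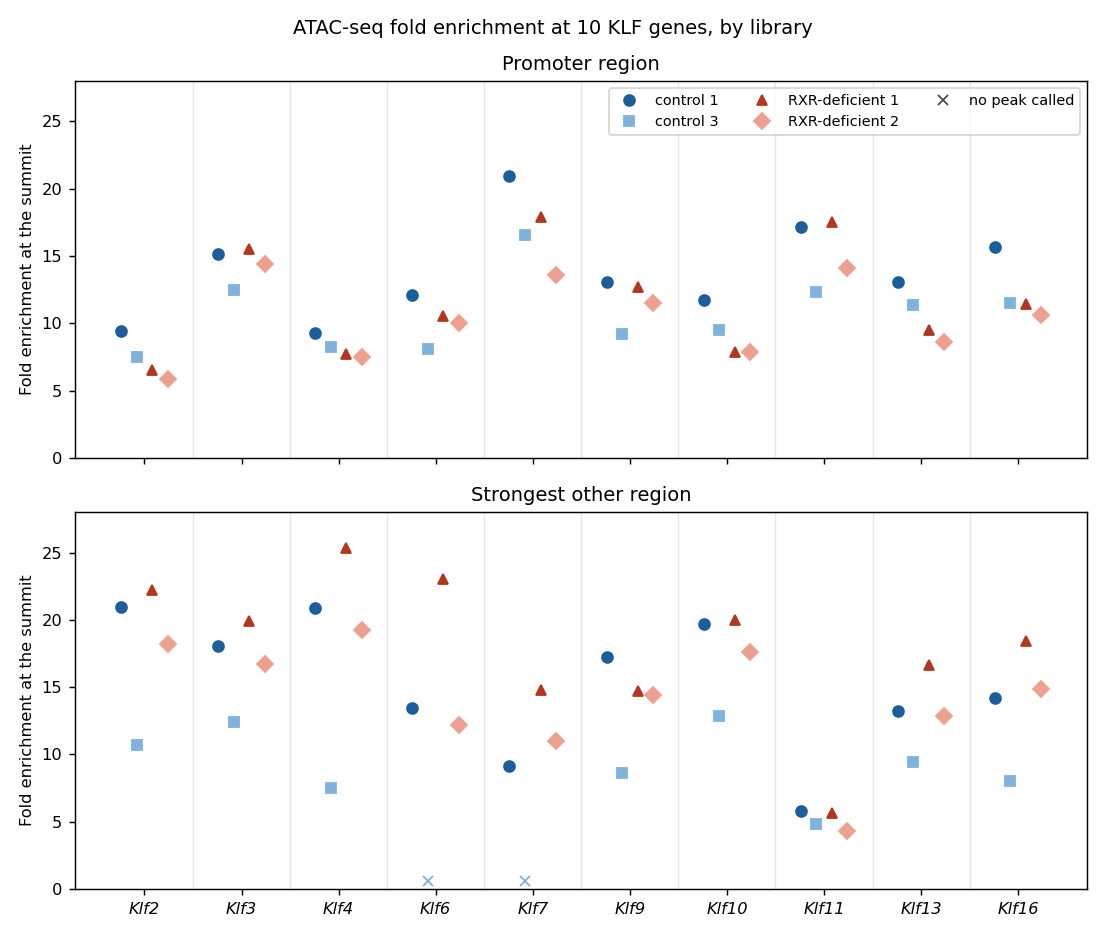
Fold enrichment at the summit (y axis, a ratio to the local background) of the promoter region (top) and the strongest other region (bottom) of each KLF gene (x axis). Each symbol is 1 library, and a cross marks a library without a peak. Control replicate 3 is lowest at 7 of the strongest other regions and has no peak at 2 more, while the promoters of Klf2, Klf10 and Klf13 lie lower in both RXR-deficient libraries than in both controls.

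Among the activators, the Klf2 promoter (mm10 chr8:72318675-72319768) had a fold enrichment of 9.42 and 7.50 in controls and of 6.53 and 5.83 in RXR-deficient LPMs. The groups did not overlap, and the log2 fold change was −0.81 (95% interval −1.33 to −0.30, adjusted p = 0.0931 by limma), the smallest p among the promoters. The Klf4 promoter (chr4:55532182-55533197) had 9.25 and 8.24 against 7.70 and 7.46, again without overlap, with a log2 fold change of −0.57 (adjusted p = 0.222 by limma). The Klf6 promoter (chr13:5860972-5861698) had 12.1 and 8.12 against 10.6 and 10.0, with both RXR-deficient values between those of the controls. The Klf7 promoter (chr1:64121484-64122504) was the strongest of the set, at 20.9 and 16.6 against 17.9 and 13.6, with overlapping groups before centring.

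The CtBP-binding repressor Klf3 had a promoter (chr5:64802758-64803727) with nearly equal values, 15.1 and 12.5 in controls and 15.5 and 14.4 in RXR-deficient LPMs. Its log2 fold change was −0.25, with a 95% interval of −0.78 to 0.29.

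Among the SIN3-binding members, the Klf10 promoter (chr15:38300619-38301279), of a gene induced early by TGF-beta, had 11.7 and 9.52 in controls and 7.88 and 7.85 in RXR-deficient LPMs. The log2 fold change was −0.79 (95% interval −1.33 to −0.26, adjusted p = 0.105 by limma). The Klf13 promoter (chr7:63938481-63939655) had 13.1 and 11.4 against 9.50 and 8.63, a log2 fold change of −0.80 (adjusted p = 0.108 by limma). The Klf16 promoter (chr10:80577183-80578071) had 15.7 and 11.5 against 11.4 and 10.6. In each of these 3 promoters the controls lay above the RXR-deficient libraries, at Klf16 narrowly (11.48 in control replicate 3 against 11.40 in RXR-deficient replicate 1). In scaled tags at the summit, described below, the genotypes overlapped at Klf13 and Klf16, with log2 fold changes of −0.035 and −0.026. At Klf10 they did not overlap (−0.52). The Klf9 promoter (chr19:23140604-23141409) had 13.1 and 9.21 against 12.7 and 11.5, and the Klf11 promoter (chr12:24650843-24651528) 17.1 and 12.4 against 17.5 and 14.1, with groups that overlapped in both before centring.

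All 10 promoter log2 fold changes in fold enrichment were negative after centring, from −0.81 to −0.23, with a median of −0.60, and without centring those of Klf3, Klf6, Klf9 and Klf11 became positive. Over all 7136 promoter-TSS regions tested, 69.5% were negative and the median was −0.18. None of the 10 passed the threshold with limma, where 0% of all promoter-TSS regions were called as higher in RXR-deficient LPMs and 0.0561% as higher in controls. An unadjusted p under 0.05 was reached by 6 of the 10, against 20.4% of all promoter-TSS regions. The whole-number pileup of tags at the summit was worked back from the fold enrichment of each peak and its p value, and scaled to the median of each library. On this measure the median of the 10 promoters was −0.20, as over all promoter-TSS regions (−0.20), and 9 of the 10 were negative, all but Klf2. The Klf2 promoter had a pileup of 427 and 84 tags in controls and 517 and 357 in RXR-deficient LPMs, which scales to 4.40 and 4.20 against 5.22 and 5.49 times the library median. Its log2 fold change on the pileup was 0.32 (adjusted p = 0.333 by limma), opposite in sign to its fold enrichment. Local background at that summit was 44.4 and 10.3 tags in controls and 78.3 and 60.4 in RXR-deficient LPMs.

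By median, the KLF promoters were more GC-rich and wider than all promoter-TSS regions together. Within 100 bp of the strongest summit their GC content had a median of 70.7%, against 64.7% over all promoter-TSS regions, and their median width was 929.5 bp against 621.5 bp. The KLF/SP box, searched as CCNCNCCC on both strands, was present at 8 of the 10 KLF promoters, those of Klf2 and Klf9 being the exceptions, against 57.2% of all promoter-TSS regions. The PU.1 letters GAGGAAG were at 0 of the 10 and at 12.2% of all promoter-TSS regions. PU.1 is the factor that sets macrophage identity. The 2 sets of promoters also differ in how widely they were called. All 10 KLF promoters were called in all libraries, against 55.8% of all promoter-TSS regions. Whether the differences in GC content, width and letters remain among promoters called in all libraries was not tested. Away from promoters, PU.1 letters were in 27.8% of the KLF regions and in 24.0% of all regions, and C/EBP letters (TTGCNNAA) in 16.0% and 12.4%. CTCF sites, searched by name with an allowance for variable bases, were in 1 of 173 KLF regions (0.578%) and in 3.90% of all regions.

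Outside the promoters, the strongest region of each gene lay 0.515 to 91.1 kb from its TSS. Among these, the region 91.1 kb upstream of Klf4 (chr4:55623364-55623862) held the highest value of any single library. By mean log2 fold enrichment, the regions of Klf2 and Klf10 given below lay above it. The Klf4 region had a fold enrichment of 20.9 and 7.53 in controls and of 25.4 and 19.3 in RXR-deficient LPMs. Control replicate 3 lay far below the others. In fold enrichment the log2 fold change came to 0.45 (adjusted p = 0.269 by limma), and in the pileup of tags to 0.03. The sequence around its summit is shown because the region has the highest fold enrichment of a single library outside the KLF promoters. It is 201 bases of the mm10 plus strand, lies in no exon, and carries PU.1 and C/EBP letters, which are in capitals on either strand.
Klf4, 91.1 kb upstream, chr4:55623454-55623654: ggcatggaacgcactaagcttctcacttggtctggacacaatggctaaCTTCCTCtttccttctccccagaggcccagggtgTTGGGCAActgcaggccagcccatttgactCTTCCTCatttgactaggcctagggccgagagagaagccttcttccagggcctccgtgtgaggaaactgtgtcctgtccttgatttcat

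The strongest other region of Klf2 was 15.3 kb upstream (chr8:72303468-72304074), with 20.9 and 10.7 in controls and 22.2 and 18.2 in RXR-deficient LPMs. That of Klf10 was 84.0 kb upstream, with 19.7 and 12.9 against 20.0 and 17.6, and that of Klf3 was 7.57 kb upstream, with 18.1 and 12.4 against 19.9 and 16.7. In these 3 regions control replicate 3 was the lowest library and the remaining values lay close together. At Klf6, 78.1 kb downstream of the TSS, the values were 13.4 in control replicate 1 and 23.0 and 12.2 in RXR-deficient LPMs, and at Klf7, 68.3 kb upstream, 9.12 against 14.8 and 11.0. Control replicate 3 had no peak at either. At Klf11 the strongest other region was 0.515 kb downstream of the TSS in an intron and weak, at 5.77 and 4.84 against 5.63 and 4.32.

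Over the 45 KLF regions called in all libraries, limma on fold enrichment called 0 as higher in RXR-deficient LPMs and 0 as higher in controls, against 0.0395% and 0.0461% of all regions tested. An unadjusted p under 0.05 was reached by 17 of the 45 (37.8%), against 22.0% of all regions, and the smallest adjusted p was 0.0641. The median log2 fold change was −0.34, against −0.09 over all regions. Both RXR-deficient libraries lay above both controls in 7 regions and below them in 20, where all regions gave 22.3% and 32.9%. The most positive values were those of Klf4 17.5 kb downstream of the TSS (0.71), Klf7 174 kb upstream (0.56) and Klf4 581 kb upstream (0.53). The most negative was that of Klf2 3.54 kb downstream (−1.13, adjusted p = 0.072 by limma).

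On the summit pileup, 1 KLF region was called as higher in RXR-deficient LPMs and 3 as higher in controls, against 2.49% and 4.98% of all 15196 regions tested. These are 2.22% and 6.67% of the 45 regions, near the background. Without overlap of the genotypes, 10 regions lay above and 18 below, where all regions gave 25.2% and 36.9%. The calls fell at Klf4, Klf3 and Klf13. The 3 calls at Klf4 and Klf3 held with either control left out, and that at Klf13 was lost without control replicate 3 (log2 fold change 0.62, adjusted p = 0.288 by limma). Without RXR-deficient replicate 1 the Klf13 call remained (1.30, adjusted p = 0.0452 by limma) and the other 3 were lost. Without RXR-deficient replicate 2 no region was called among all 15271 tested, so that fit does not bear on these 4. The 2 measures had the same sign in 35 of the 45 regions. In the other 10, fold enrichment was lower and the pileup higher in RXR-deficient LPMs, and 6 of these belonged to Klf13, 3 to Klf2 and 1 to Klf10.

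**Figure D2:**
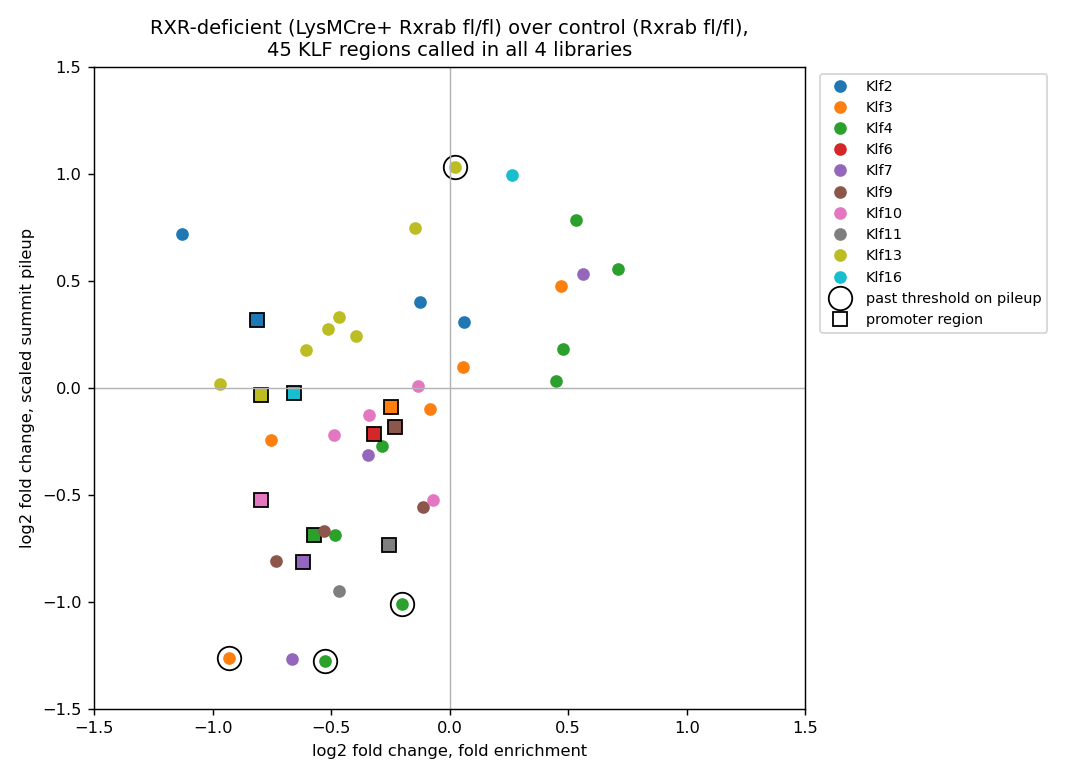
Log2 fold change (RXR-deficient over control) in fold enrichment (x axis) and in scaled summit pileup (y axis) of the 45 KLF regions called in all 4 libraries, coloured by gene. Squares are promoter regions and rings mark the 4 regions past the threshold on the pileup. The 10 promoters lie left of zero after centring, and regions of Klf13 and Klf2 make up 9 of the 10 points at upper left.

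Both Klf4 calls were distal. The region 266 kb upstream (chr4:55798008-55798538, intergenic) had a pileup of 139 and 24 tags in controls and of 47 and 40 in RXR-deficient LPMs. Scaled to the median of each library, this is 1.43 and 1.20 against 0.475 and 0.615. The controls lay above both RXR-deficient libraries, with a log2 fold change of −1.28 (95% interval −1.82 to −0.74, adjusted p = 0.0217 by limma). In fold enrichment it was 19.5 and 9.92 against 12.6 and 12.3, a log2 fold change of −0.53 (adjusted p = 0.18 by limma). The region 190.1 kb upstream (chr4:55722411-55722818, intergenic) had 88 and 23 tags in controls and 50 and 33 in RXR-deficient LPMs, which scales to 0.907 and 1.15 against 0.505 and 0.508. Its log2 fold change was −1.01 on the pileup (95% interval −1.53 to −0.49, adjusted p = 0.0303 by limma) and −0.20 in fold enrichment. The Klf3 call lay 50.2 kb upstream of the TSS (chr5:64753057-64753548, intergenic). Its tags numbered 50 and 13 in controls and 22 and 17 in RXR-deficient LPMs, or 0.515 and 0.650 against 0.222 and 0.262 after scaling. The log2 fold change was −1.26 on the pileup (adjusted p = 0.0216 by limma) and −0.93 in fold enrichment (adjusted p = 0.0641 by limma), so that this region was the closest to a call on both measures.

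The summit sequences of these 3 regions are shown since they are the KLF regions past the pileup threshold with lower scaled tags in RXR-deficient LPMs. In unscaled tags, control replicate 3 was the lowest library at each of the 3. They are 201 bases of the mm10 plus strand outside exons. Capitals mark KLF/SP, PU.1, C/EBP and GATA letters (AGATAA) on either strand, and the window 190.1 kb upstream of Klf4 holds no match to any of the motifs searched.
Klf4, 266 kb upstream, chr4:55798232-55798432: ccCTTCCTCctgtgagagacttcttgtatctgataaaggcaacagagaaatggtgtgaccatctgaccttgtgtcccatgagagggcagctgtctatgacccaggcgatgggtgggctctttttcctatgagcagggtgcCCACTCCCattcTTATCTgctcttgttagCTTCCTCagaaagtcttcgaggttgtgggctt
Klf4, 190.1 kb upstream, chr4:55722520-55722720: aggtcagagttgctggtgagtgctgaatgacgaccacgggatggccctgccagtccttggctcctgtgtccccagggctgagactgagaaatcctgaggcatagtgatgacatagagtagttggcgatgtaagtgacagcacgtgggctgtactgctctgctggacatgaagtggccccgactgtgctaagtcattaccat
Klf3, 50.2 kb upstream, chr5:64753159-64753359: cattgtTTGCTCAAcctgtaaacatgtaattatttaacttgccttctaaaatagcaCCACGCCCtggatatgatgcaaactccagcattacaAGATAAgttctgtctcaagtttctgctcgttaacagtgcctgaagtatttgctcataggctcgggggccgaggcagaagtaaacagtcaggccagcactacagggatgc
The windows at Klf4 266 kb upstream and at Klf3 both hold a KLF/SP box and a GATA match. GATA6 is the factor that defines LPMs. GATA letters were found in 15 of the 173 KLF regions (8.67%) and in 6.44% of all regions, and KLF/SP boxes in 31.2% and 31.0%.

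The call in the other direction was inside Klf13. The region (chr7:63896685-63897479) lies 41.8 kb downstream of the Klf13 TSS in an intron, where the gene Gm27252 overlaps and has the nearer TSS, so that its assignment to Klf13 rests on the gene body. Its pileup was 181 and 37 tags in controls and 312 and 298 in RXR-deficient LPMs, or 1.87 and 1.85 against 3.15 and 4.58 times the library median. The log2 fold change was 1.03 (95% interval 0.47 to 1.60, adjusted p = 0.0355 by limma). In fold enrichment it was 13.2 and 9.45 against 16.6 and 12.9, with a log2 fold change of 0.02 (95% interval −0.46 to 0.50). An intronic region of Klf16, 7.32 kb downstream of its TSS (chr10:80569702-80570249), came just short of the fold threshold. It had 90 and 22 tags against 191 and 136, a log2 fold change of 0.99 (adjusted p = 0.0302 by limma). In each of these 2 intronic regions, picked by their pileup, both RXR-deficient libraries exceeded both controls after scaling.
Klf13, 41.8 kb downstream, chr7:63896973-63897173: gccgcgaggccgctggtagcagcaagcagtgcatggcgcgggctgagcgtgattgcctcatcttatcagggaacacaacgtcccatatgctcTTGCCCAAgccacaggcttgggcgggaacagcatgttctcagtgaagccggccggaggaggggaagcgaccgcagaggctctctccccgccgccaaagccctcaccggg
Klf16, 7.32 kb downstream, chr10:80569795-80569995: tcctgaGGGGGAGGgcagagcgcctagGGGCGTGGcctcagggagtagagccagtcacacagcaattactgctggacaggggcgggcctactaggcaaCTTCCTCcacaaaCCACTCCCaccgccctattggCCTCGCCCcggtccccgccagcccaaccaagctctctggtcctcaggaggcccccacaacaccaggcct
These windows are printed, with the same convention, as the KLF region past the pileup threshold with higher scaled tags in RXR-deficient LPMs and the region just short of it. The Klf16 window holds 4 KLF/SP boxes and 1 PU.1 match, and the Klf13 window 1 C/EBP match.

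**Figure D3:**
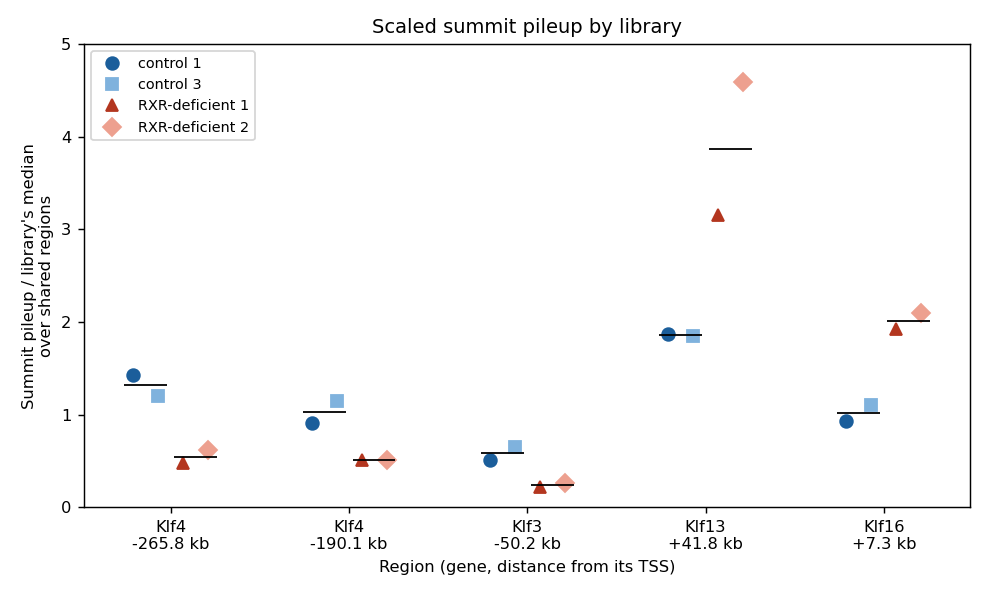
Summit pileup divided by the median of each library over the regions called in all 4 libraries (y axis) at the 4 KLF regions past the threshold on the pileup and at the Klf16 region just short of it (x axis, distance from the TSS). Each symbol is 1 library and each bar the mean of the 2 libraries of a genotype. The 5 regions were picked by their change on this measure, so the lack of overlap between the genotypes at each is no separate result.

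The wide stretch upstream of Klf4 held regions with higher and with lower values in RXR-deficient LPMs. In the fit to regions called in all libraries, only lower ones passed the threshold, on the pileup. Of the 52 Klf4 regions, 50 were intergenic, and they reached from 43.6 kb downstream to 602 kb upstream of the TSS. Controls had 29 and 10 of the 52 called, against 46 and 36 in RXR-deficient LPMs. Of these, 9 (17.3%) were called in all libraries and 10 (19.2%) only in both RXR-deficient libraries, below the 21.5% and 22.8% of all regions. The strongest of the latter, 113 kb upstream, had a fold enrichment of 9.58 and 8.41. The region 209 kb upstream (chr4:55741068-55741836) had 24 tags in control replicate 1, none called in replicate 3, and 75 and 48 in RXR-deficient LPMs, with a fold enrichment of 8.06 against 19.1 and 14.3. At the region 184 kb upstream (chr4:55716132-55716796), the order was the opposite, with 45 tags in control replicate 1, no peak in replicate 3, and 9 and 18 tags in RXR-deficient LPMs.

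**Figure D4:**
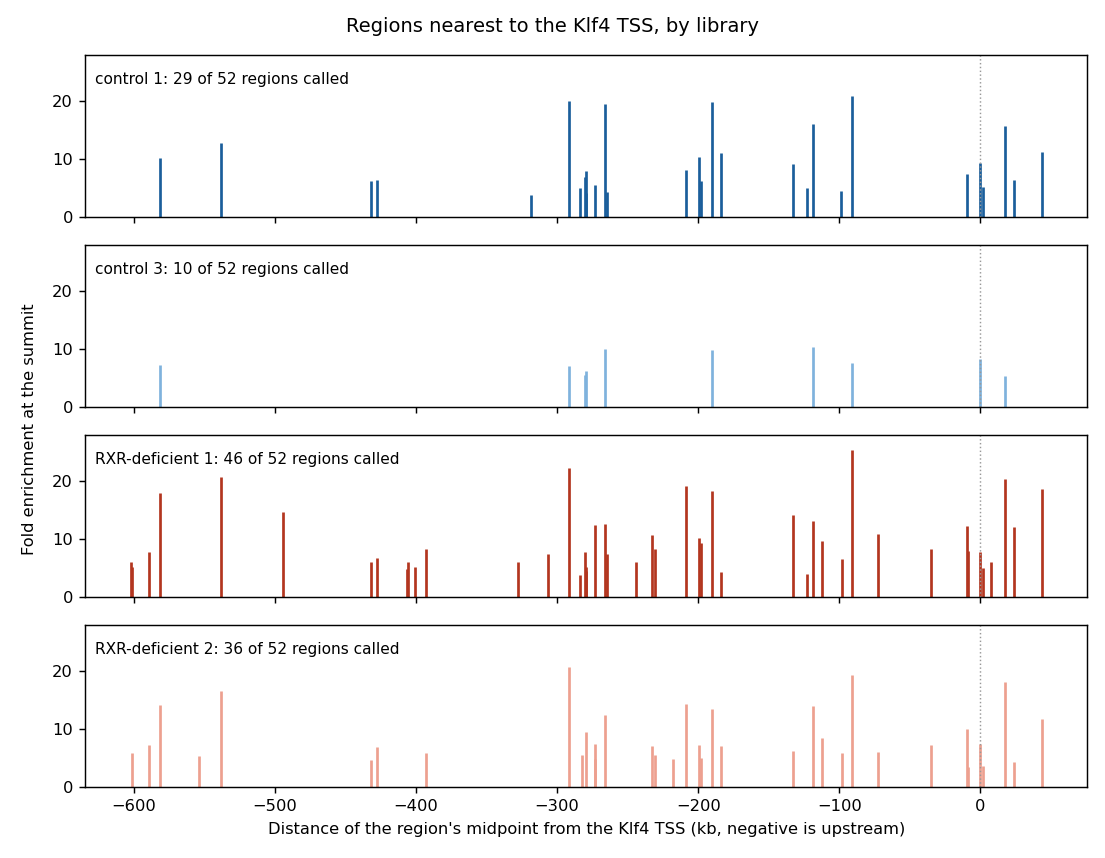
Fold enrichment at the summit (y axis) of each region nearest to the Klf4 TSS, by the distance of its midpoint from the TSS in kb (x axis, negative is upstream), with 1 panel per library. A line is drawn only where a peak was called, in 29 and 10 of 52 regions in controls and in 46 and 36 in RXR-deficient LPMs. The lines at 91.1 kb upstream and 292 kb upstream are tall in 3 of the 4 panels.

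Since control replicate 3 called few distal regions, the fit was repeated without it, which brought 89 KLF regions into the test and left a single control library, assumed to vary like the others. In that fit the standard error on the pileup was 0.39 at each KLF region called. Its p values thus follow the size of the change alone and measure no spread between controls. On the pileup, 10 KLF regions were then higher in RXR-deficient LPMs and 11 higher in controls, against 5.17% and 7.89% of all regions tested. The 11 lower ones comprised 3 at Klf4, 4 at Klf7, 2 at Klf11, 1 at Klf3 and 1 at Klf9. Of the 10 higher ones, 4 belonged to Klf2, 2 each to Klf4 and Klf6, and 1 each to Klf9 and Klf10.

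At Klf2, all 4 lay downstream of the gene. The widest, 6.05 kb downstream of the TSS (chr8:72324136-72326081, intergenic), had 71 tags in control replicate 1 and 229 and 382 in RXR-deficient LPMs, with a log2 fold change of 1.93. Its fold enrichment was nearly level, 2.72 against 2.64 and 3.21, and the local background was 25.5 tags in the control and 86.2 and 118.5 in RXR-deficient LPMs. The other 3 lay 31.1, 41.5 and 46.9 kb downstream, in introns of the neighbouring gene Eps15l1. At 31.1 kb there were 27 tags in control replicate 1 and 113 and 87 in RXR-deficient LPMs. At Klf6, the 2 regions lay 10.2 and 26.9 kb downstream of the TSS, beyond the end of the gene. The first (chr13:5871368-5872035) had 65 tags against 217 and 189 and the second (chr13:5888098-5888661) 25 against 76 and 77, with log2 fold changes of 1.51 and 1.48. Neither promoter passed the threshold on either measure over all libraries.

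**Figure D5:**
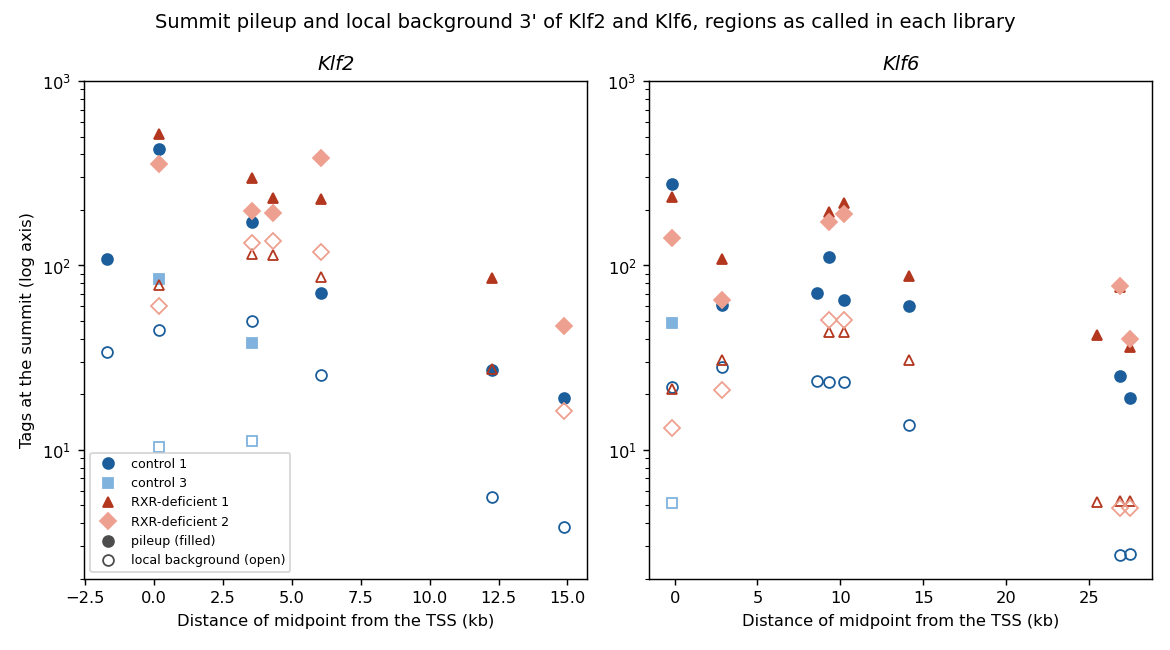
Tags at the summit (y axis, log axis) as the pileup (filled) and the local background (open) for regions around and 3′ of Klf2 and Klf6, by distance from the TSS in kb (x axis). Each symbol is 1 library and is drawn only where a peak was called. From 3.54 to 12.3 kb downstream of Klf2 both the pileup and the background of the RXR-deficient libraries lie above those of control replicate 1.

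At Klf7, 4 regions lost tags in that fit. The region 85.4 kb into the gene (chr1:64035804-64036235, intron) had 42 tags in control replicate 1 and 12 and 16 in RXR-deficient LPMs (log2 fold change −1.73). The intronic region 69.1 kb downstream of the TSS, called in all libraries, had 60 and 21 tags in controls and 24 and 30 in RXR-deficient LPMs, and missed the threshold over all libraries (log2 fold change −1.27, adjusted p = 0.051 by limma). The Klf7 promoter itself had 433 and 102 tags against 291 and 163, a log2 fold change of −0.81 over all libraries (adjusted p = 0.0494 by limma), which is short of the fold threshold. At Klf11, the promoter had 277 and 62 tags against 200 and 103 and the adjoining intronic region 93 and 24 against 64 and 31, and after scaling both lay lower in RXR-deficient LPMs in each library.

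Direct repeats of the RXR half-site were rare at the KLF genes. Elements spaced by 1 base (DR1) or 5 bases (DR5) are bound by RXR homodimers and by heterodimers of RXR with the retinoic acid receptor. They were matched by name with allowance for variable bases on both strands, and 1 KLF region held a DR1 (0.578%, against 0.164% of all regions) and 1 a DR5 (0.578%, against 0.151%). The DR5 lies in the strongest distal region of Klf9, 84.0 kb upstream of its TSS (chr19:23056780-23057742, intergenic). That region had a fold enrichment of 17.2 and 8.62 in controls and of 14.7 and 14.4 in RXR-deficient LPMs. Its pileup was 96 and 24 tags against 61 and 58, with both RXR-deficient libraries below the controls after scaling and a log2 fold change of −0.56 (adjusted p = 0.17 by limma). The DR1 lies 203 kb upstream of Klf7 (chr1:64324089-64324338), in a region called in control replicate 1 alone, with 17 tags and a fold enrichment of 6.06. Both windows are shown for these letters, with all motif matches in capitals.
Klf9, 84.0 kb upstream, chr19:23056927-23057127: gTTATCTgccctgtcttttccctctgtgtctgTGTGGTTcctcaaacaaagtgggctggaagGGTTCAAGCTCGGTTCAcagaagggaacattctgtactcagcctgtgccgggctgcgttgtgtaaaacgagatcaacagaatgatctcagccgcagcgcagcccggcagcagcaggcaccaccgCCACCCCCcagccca
Klf7, 203 kb upstream, chr1:64324156-64324356: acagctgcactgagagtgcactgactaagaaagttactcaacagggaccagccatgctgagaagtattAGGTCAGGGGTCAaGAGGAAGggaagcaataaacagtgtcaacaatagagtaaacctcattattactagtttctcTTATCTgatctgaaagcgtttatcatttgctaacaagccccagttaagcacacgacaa

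Genes around the family were counted in the same way. Promoters of 15 other KLF and SP genes were called in 8 and 5 cases in controls and in 11 and 8 in RXR-deficient LPMs. Of 10 genes for KLF cofactors (the CtBP, SIN3, HDAC and p300 proteins and their like), 10 and 8 had a promoter peak in controls and 10 and 10 in RXR-deficient LPMs. Of 9 cell cycle genes known as KLF targets, the counts were 9 and 7 against 9 and 8. Over all merged regions, 52.0% and 21.9% were called in controls and 90.7% and 77.2% in RXR-deficient LPMs. Promoter-TSS regions were called more widely, 55.8% in all 4 libraries and 8.91% in both RXR-deficient libraries only. Genotype and peak number go together in these libraries and cannot be told apart in these promoter counts. With limma, 0 of the 5 relatives, 0 of the 8 cofactors and 0 of the 7 cell cycle promoters that were called in all libraries passed the threshold on either measure. Their median log2 fold changes in fold enrichment were −0.42, −0.24 and −0.36, between those of all promoter-TSS regions (−0.18) and of the KLF promoters (−0.60).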

How the data were processed

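LPMs were profiled by ATAC-seq in 2 control (Rxrab fl/fl) and 2 RXR-deficient (LysMCre+ Rxrab fl/fl) libraries. The authors trimmed adaptors with cutadapt, aligned paired reads to mm10 with Bowtie2, kept reads of mapping quality above 30, removed duplicates and reads of mitochondria and sex chromosomes, and called peaks per library with MACS2 2.1.1 (extension 200 bp, q value 0.05). Versions are those of the submitters' processing notes. The deposited files give for each peak a fold enrichment, a ratio to the local background that compresses changes where the background changes too. This ratio still differed between libraries of unequal depth. Over the regions called in all libraries its median was 14.5 and 7.52 in control replicates 1 and 3. In RXR-deficient replicates 1 and 2 it was 15.1 and 12.0. The p value and q value of each peak are deposited as −log10, beside the offset of its summit. Read counts are not analysed here, so the authors' count test in DiffBind with edgeR was not repeated.

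Peaks sharing at least 1 bp were merged, and the regions placed by their midpoint on curated RefSeq transcripts of mm10 (45756 transcripts, 26180 genes), where promoter-TSS means a TSS with 1 kb before it and 200 bp after it. The whole-number pileup at each summit was solved from fold enrichment and p value, which succeeded for 99.997 to 100% of peaks. Log2 values were centred on the median of each library and compared by lmFit and eBayes of limma 3.58.1 (R 4.3.3), with Benjamini-Hochberg adjustment over all regions tested. Calls needed an adjusted p under 0.05 with a log2 fold change past 1 in either direction. The scripts were tested on simulated data. Motifs were searched within 100 bp of the strongest summit, in sequence of the RefSeq mm10 assembly.

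For each gene, the promoter region, the strongest other region by mean log2 fold enrichment, regions past the threshold on either measure and the strongest region called in 1 genotype only could be named. Other regions were named after their values were seen. The genes and lists were chosen with earlier results of these data known. The lists were the 15 KLF and SP relatives, 10 cofactors, 9 cell cycle genes and the markers of macrophages, LPMs, SPMs, B cells, T cells, granulocytes and mast cells (promoters called at 1 and 0 of 5 genes in controls and at 1 and 1 in RXR-deficient libraries), and mesothelium. Alternatives were a q value of 0.01, equal numbers of peaks, summit windows, nearest TSS only, other centring, a mean-variance trend, the pileup, a call by adjusted p alone, regions called in 2 or more libraries, and each library left out. The scripts ran on Python 3.11.15 with pandas 2.3.3, pysam 0.24.0, numpy 2.4.6 and scipy 1.17.1.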

Additional observations from a re-analysis of the deposited data

How the results depend on the processing

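Depth differed between the libraries, with a median of 20 tags at shared summits in control replicate 3 and 65 to 99 in the others, and its part in the calls was not tested. With an equal number of peaks per library, 6 KLF regions (8.33%, against 7.82% of all regions) were called in both RXR-deficient libraries only. Another 4 (5.56%, against 7.22%) were called in both controls only. With each library left out, the first count ran from 24 (13.9%, against 22.9% of all regions) to 68 (41.2%, against 49.2%). The second ran from 0 to 8 (4.62%, against 1.78%). The other settings left both counts within 1.5 times. KLF regions called by limma were 1 higher and 3 lower in RXR-deficient LPMs on the summit pileup, and 5 higher and 1 lower of 99 (against 7.73% and 0.385% of all regions) when regions called in at least 2 libraries, with 1 or more of each genotype, were tested. Each library left out in turn gave 0 to 1 higher and 0 to 8 lower in fold enrichment, and 0 to 10 higher and 0 to 11 lower on the pileup, an alternative added after seeing the data. The 8 (17.8%, against 3.55% of all regions) came without control replicate 1, among them the promoters of Klf2 (−1.12), Klf10 (−1.12) and Klf13 (−1.17). Of the 4 pileup calls, those of Klf4 and Klf3 held with either control left out and were lost without RXR-deficient replicate 1, and that of Klf13 was lost without control replicate 3 (0.62). Without RXR-deficient replicate 2 the pileup fit called 0 of all 15271 regions. A genotype left with 1 library was assumed to vary like the other. The remaining settings called 0 KLF regions. No paired analysis was possible because the genotypes share only replicate number 1.
The directions of single promoter and strongest other regions changed with the processing, and not only where values were small. The Klf2 promoter, at −0.81 in fold enrichment, was positive on the pileup. The strongest other region of Klf4, at 0.45 over all libraries, turned negative in some fits with a library left out. No centring moved the median of all regions from −0.09 to 0.28 and turned the promoters of Klf3 (0.12), Klf6 (0.051), Klf9 (0.14) and Klf11 (0.11) and the strongest other regions of Klf3 (0.29), Klf9 (0.26) and Klf10 (0.24) positive. Quantile normalization turned the strongest other region of Klf3 (0.0072), and the pileup turned the Klf2 promoter (0.32) and the strongest other region of Klf10 (0.0060). With each library left out, fold enrichment of the strongest other region ran from −0.29 to 0.079 at Klf2, from −0.15 to 0.71 at Klf4, from −0.47 to 0.040 at Klf9, from −0.21 to 0.040 at Klf13 and from −0.0047 to 0.28 at Klf16. On the pileup, leaving out control replicate 3 gave −0.036 and −0.36 at the strongest other regions of Klf2 and Klf4, and leaving out control replicate 1 gave 0.35 at the Klf2 promoter and 0.17 at the strongest other region of Klf10. Leaving out RXR-deficient replicate 1 gave 0.35 and 0.035 at the promoters of Klf2 and Klf13 and 0.073 and 0.084 at the strongest other regions of Klf3 and Klf10, and leaving out RXR-deficient replicate 2 gave 0.27 at the Klf2 promoter. The cause was not tested.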
